A study of Homo sapiens with 2 samples.

Results

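The nuclear genes that encode the subunits of the mitochondrial oxidative phosphorylation system were compared between MRC-5 lung fibroblasts that received periostin siRNA and MRC-5 lung fibroblasts that received control siRNA. The genes were chosen by symbol, as those of the NDUFA, NDUFB, NDUFC, NDUFS and NDUFV series, SDHA to SDHD, and every symbol that begins with UQCR, with COX4 to COX8 or with ATP5, with pseudogenes, antisense transcripts, readthroughs and assembly factors left out. RefSeq lists 85 such protein-coding genes, 83 of them had a probe on both arrays, and 82 gave a ratio or a bound, among 16052 genes with a ratio or a bound in all. These were 36 genes of complex I, 4 of complex II, 8 of complex III, 15 of complex IV and 19 of complex V. COX7A1 and UQCRHL were not analysed here, and COX7B2 was not well above background on either array (scaled signal 2.98 with control siRNA and 1.62 with periostin siRNA).

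The MRC-5 line, long established, was derived from fibroblasts of human fetal lung, and periostin, encoded by POSTN, is a matricellular protein that these cells make. The array experiment used 10 nM ON-TARGETplus siRNA, given with RNAiMAX for 48 h, and the line carried no other genetic change or agent named in the labels. A single sample per condition was hybridized to a one-color Agilent array, so each side of the comparison is a single array and no difference below has a replicate check or a test. For the arrays the concentration and the time are stated for periostin siRNA, and control siRNA was used at the same concentration where its use in PCR of these cells is described.

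Oxidative phosphorylation is the last stage of aerobic energy metabolism. Complex I accepts electrons from NADH and complex II from succinate, complex III and complex IV pass them on through cytochrome c to oxygen, and complexes I, III and IV pump protons across the inner mitochondrial membrane. Complex V, the ATP synthase, lets the protons back and makes ATP. Most subunits are encoded in the nucleus and imported, while a few of the catalytic ones are encoded by mitochondrial DNA and have to be made in step with them.

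Values are scaled signals, in arbitrary units on a scale common to both arrays, and log2 ratios of periostin siRNA over control siRNA, so that a negative ratio is a lower signal with periostin siRNA. Of the 82 measured genes, 78 rest on 1 spot per array, and the ± beside their ratio is the error propagated from the scanner's error of both spots, 0.20 for nearly all of them. For 4 genes whose probe was printed 10 times, the ± is the SD over spots. Neither holds any variation between cultures. Fewer cells expressing a gene and less RNA per cell cannot be told apart in these bulk samples.

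The targeted gene was lower as labelled. The scaled signal of POSTN was 2638 in the control and 279.7 in the knockdown (log2 ratio -3.24 ± 0.20), while GAPDH, printed 10 times, gave 103523 and 106309 (0.04 ± 0.04, SD over spots). On the arrays, 58.0% of spots with control siRNA and 58.9% with periostin siRNA were well above background, and no spot was saturated. All 8 fibroblast markers examined, among them VIM and COL1A2, were well above background on both arrays. Of 11 markers of epithelial, endothelial and immune cells, 6 were well above background on both arrays, CD74 only with periostin siRNA, and CDH1, KRT5, PECAM1 and LAPTM5 on neither. Summed over the 11, their signal came to 505 in the control and to 914 after knockdown, mostly CD14 (287 and 549) and EPCAM (34.6 and 135), with PTPRC at 17.6 and 25.1, CDH5 at 49.5 and 46.5 and VWF at 72.1 and 79.8, and its part in the results below was not tested.

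As a group, the subunit genes were slightly higher with periostin siRNA. Their median log2 ratio was 0.17, with the middle 50% of genes between -0.03 and 0.31, and 59 of 82 were above 0, which is 72.0% against 54.5% of all genes measured. The 59 include the bounds of COX8C and COX4I2, which could only fall above 0. Without these bounds the count was 57 of 80 (71.25%), and the median was again 0.17. The median of all genes was 0.06, and that of the brightest 25% of genes, where 78 of the subunit genes lie, was 0.04. Scaling on the median signal of each array lowered the median of all genes by 0.13 and that of the subunit genes to 0.05, with the distance between the groups nearly the same at 0.12 against 0.11. With 1 array per condition, these are descriptions of a pair of cultures.

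**Figure D1:**
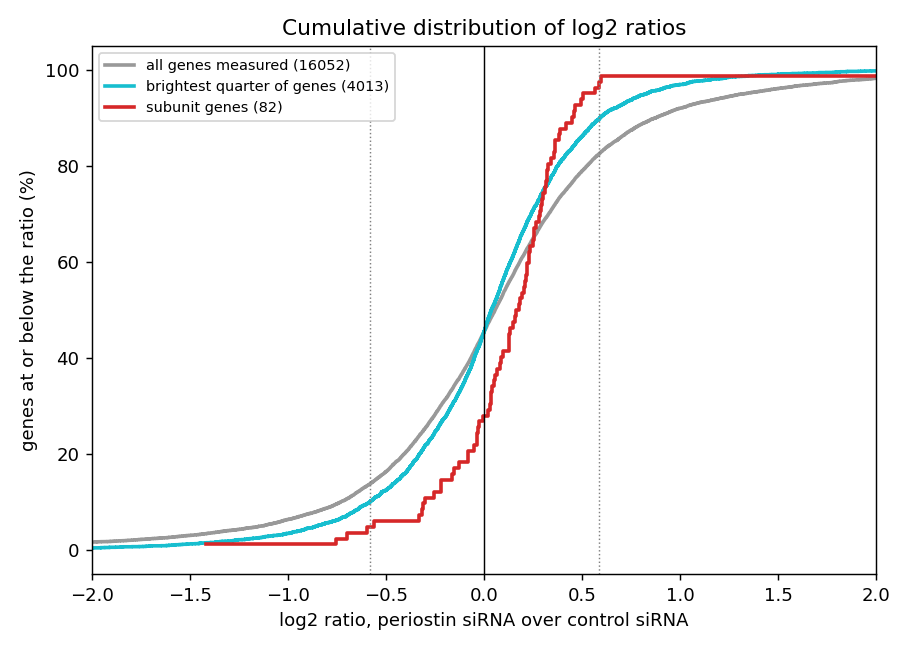
Cumulative distribution of log2 ratios of periostin siRNA over control siRNA (x axis, cut at -2 and 2) as the percentage of genes at or below each ratio (y axis), for 82 subunit genes, 16052 genes measured and the 4013 brightest of these. Dotted lines mark a change of 1.5-fold. The curve of the subunit genes lies to the right of the others around 0 and is steeper than both, since few subunit genes passed 1.5-fold in either direction.

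Large differences were rare. Past 1.5-fold lower were 4 subunit genes (4.88%), NDUFV2, COX6A2, UQCRB and SDHB, where 13.7% of all genes and 9.92% of the brightest 25% were past that fold. Past 1.5-fold higher were 3 (3.66%), NDUFB11, NDUFB4 and COX8C, the last of them a bound, since its probe was well above background only with periostin siRNA, against 17.6% of all genes and 10.3% of the brightest 25%. NDUFV2 alone was past 2-fold lower, where the share was 6.42% of all genes and 3.51% of the brightest 25%. Among the 80 genes well above background on both arrays none was past 2-fold higher, where these shares were 7.97% and 3.04%. The bound of COX8C was past 2-fold and 3-fold higher (3.37% of all genes for the latter), but not with normexp background correction. No subunit gene was past 3-fold lower (2.75% of all genes and 1.07% of the brightest 25%). Ratios within 0.2 of 0 on the log2 scale were found for 32 of the 82 (39.0%), close to the 38.8% of the brightest 25% of genes and above the share of all genes (4815 of 16052).

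**Figure D2:**
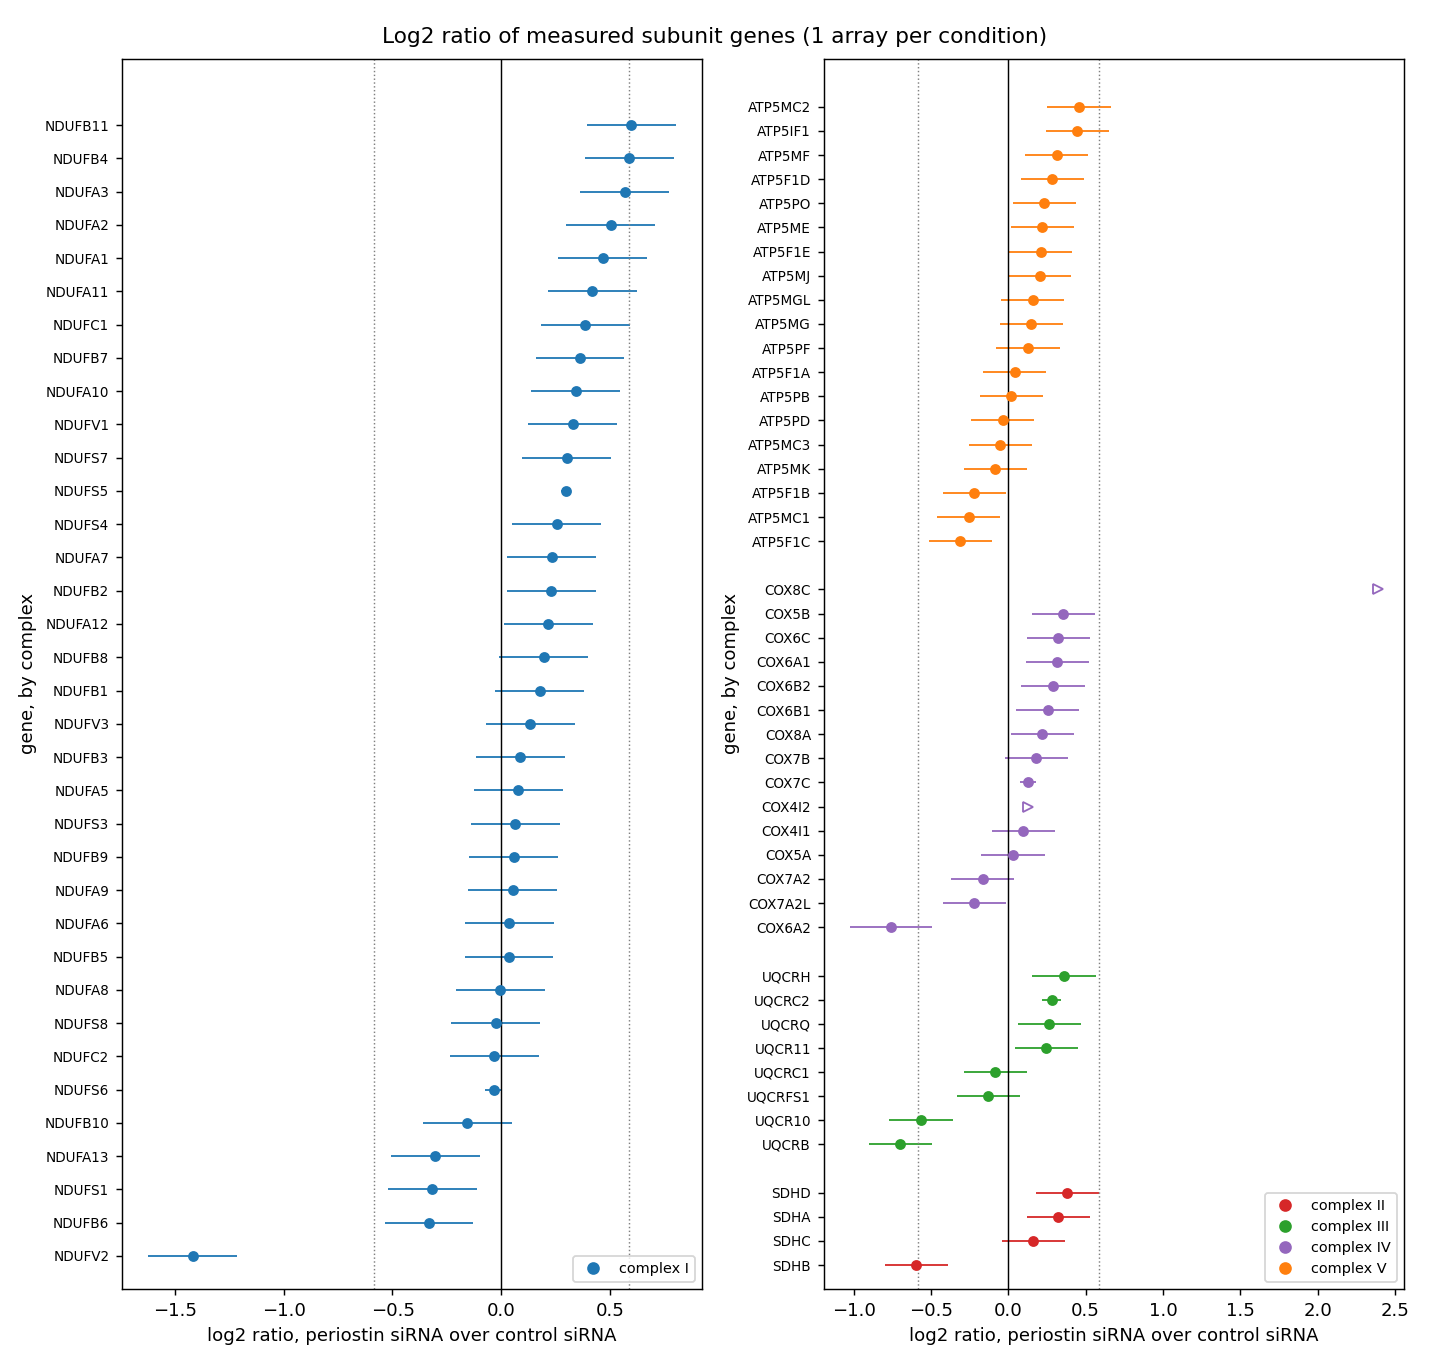
Log2 ratio of periostin siRNA over control siRNA (x axis) of the measured subunit genes (y axis; 1 complex I gene is left out), complex I on the left and complexes II to V on the right, on axes of different range. Filled points carry the propagated spot error, or the SD over 10 spots for NDUFS5, NDUFS6, UQCRC2 and COX7C, where it can be smaller than the point. Open triangles are lower bounds, for COX4I2 and COX8C. Dotted lines mark 1.5-fold, and NDUFV2 (-1.42) stands apart from the other complex I genes.

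In complex I, the NADH dehydrogenase, 27 of 36 genes were above 0 and the median ratio was 0.19. The 29 accessory subunits, which surround and stabilize the enzyme, had a median of 0.20 with 23 above 0. The 7 nuclear core subunits, which include those that hold the flavin and the iron-sulfur clusters, had a median of 0.06 with 4 above 0, which became -0.06 with median scaling. By series of names, the medians were 0.22 for the 12 NDUFA genes, 0.18 for the 11 NDUFB genes and 0.16 for the 8 NDUFS genes.

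NDUFV2 was the lowest of all 82 genes. It encodes an iron-sulfur subunit of the module that oxidizes NADH, next to the flavin-binding subunit NDUFV1. Control siRNA gave 19069 and periostin siRNA 7139, for a log2 ratio of -1.42 ± 0.20, or 2.67-fold lower, read from 1 spot per array. NDUFV1 gave 10799 and 13558, a log2 ratio of 0.33 ± 0.20, so the subunits that sit side by side in this module differed in direction. The third subunit of the series, NDUFV3, had 3992 and 4376 (0.13 ± 0.20), a difference within its spot error. Under all 12 settings of processing the ratio of NDUFV2 lay between -1.55 and -1.37.

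Other complex I genes on the lower side differed by little more than their errors. NDUFB6, an accessory subunit of the membrane arm, had 7981 with control siRNA and 6338 with periostin siRNA (-0.33 ± 0.20), and its other probe gave -0.30. NDUFS1, the largest iron-sulfur subunit of the core, had 8065 and 6476 (-0.32 ± 0.20). NDUFA13, also studied under the name GRIM-19, had 17024 and 13799 (-0.30 ± 0.20).

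On the higher side were mostly small accessory subunits. NDUFB11 gave 10092 on the control array and 15262 on the periostin siRNA array (log2 ratio 0.60 ± 0.20), and NDUFB4 gave 25890 and 38913, a ratio of 0.59 ± 0.20. Both lie within the spot error of the 1.5-fold line (NDUFB11 at 1.51-fold), and over the 12 settings their ratios were 0.47 to 0.64 and 0.46 to 0.63. NDUFA3 followed with 15428 and 22833 (0.57 ± 0.20), NDUFA2 with 11044 and 15647 (0.50 ± 0.20) and NDUFA1, an X-linked subunit, with 20055 and 27689 (0.47 ± 0.20).

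A pair of complex I genes were printed 10 times, and for them the spot error was small. NDUFS5 gave signals of 71626 to 78717 (median 75121) with control siRNA and 89873 to 95679 (median 92338) with periostin siRNA. Its log2 ratio was 0.30 ± 0.02 (SD over spots). NDUFS6 gave 9879 to 10713 (median 10375) and 9511 to 10419 (median 10137), ranges that overlap, with a ratio of -0.04 ± 0.04. These ranges describe spots of 1 culture each.

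Complex II, succinate dehydrogenase, also belongs to the citric acid cycle and is the only complex encoded entirely in the nucleus. Of its 4 genes, 3 were higher and 1 was lower. SDHA, the flavoprotein that oxidizes succinate, gave 8022 with control siRNA and 10028 with periostin siRNA (0.32 ± 0.20), and its 4 probes ranged from 0.27 to 0.38. SDHB, the iron-sulfur subunit bound to it, gave 3665 and 2425 (-0.60 ± 0.20), or 1.51-fold lower, from 1 probe, and without scaling (-0.55) it was no longer past 1.5-fold.

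The membrane anchors were on the same side as SDHA. SDHC gave 7395 and 8273 (0.16 ± 0.20), with a range of 0.16 to 0.28 over 3 probes. SDHD gave 2454 and 3195 (0.38 ± 0.20), with a range of 0.38 to 0.44 over 3 probes. In complex II, as in the NADH module of complex I, a flavin-binding subunit and a neighbor with an iron-sulfur cluster were thus on opposite sides of 0. That pairing was noticed after the values were seen, and NDUFV1 itself also carries an iron-sulfur cluster. The other iron-sulfur subunits are given further on.

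The promoters of the lowest and the highest gene of complexes I and II are shown so that genes of the same enzyme with opposite ratios can be set beside each other. The sequences are those of RefSeq on GRCh38.p14, the 250 bases before the annotated gene start, 5′ to 3′ on the gene's strand, and capitals mark a match to a motif searched. NDUFV2 lies at chr18:9102449-9102698 (+ strand), NDUFB11 at chrX:47144703-47144952 (- strand), SDHB at chr1:17054033-17054282 (- strand) and SDHD at chr11:112086623-112086872 (+ strand).
NDUFV2: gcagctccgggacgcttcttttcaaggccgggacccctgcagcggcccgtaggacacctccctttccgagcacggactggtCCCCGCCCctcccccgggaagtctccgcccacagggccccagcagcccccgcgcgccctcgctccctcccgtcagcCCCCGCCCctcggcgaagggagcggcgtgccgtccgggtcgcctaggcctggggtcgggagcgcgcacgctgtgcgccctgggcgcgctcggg
NDUFB11: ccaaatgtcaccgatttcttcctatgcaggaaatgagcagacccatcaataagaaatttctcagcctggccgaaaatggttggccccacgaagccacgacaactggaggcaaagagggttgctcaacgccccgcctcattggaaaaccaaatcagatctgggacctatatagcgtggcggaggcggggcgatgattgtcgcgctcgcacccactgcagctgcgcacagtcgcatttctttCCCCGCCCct
SDHB: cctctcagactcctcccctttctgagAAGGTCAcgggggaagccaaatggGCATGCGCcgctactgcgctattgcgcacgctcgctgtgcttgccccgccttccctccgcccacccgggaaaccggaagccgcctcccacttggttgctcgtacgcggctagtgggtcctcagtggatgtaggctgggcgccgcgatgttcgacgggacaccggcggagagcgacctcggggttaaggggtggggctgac
SDHD: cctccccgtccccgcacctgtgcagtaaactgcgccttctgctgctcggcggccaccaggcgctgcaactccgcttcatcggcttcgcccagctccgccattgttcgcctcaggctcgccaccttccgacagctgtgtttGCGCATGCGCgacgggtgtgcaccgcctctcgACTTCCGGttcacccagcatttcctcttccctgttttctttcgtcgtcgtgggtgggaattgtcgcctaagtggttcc
In NDUFV2 the capitals are a pair of matches to the SP motif on the other strand, and in NDUFB11 a single one. In SDHB they are an ERR match and an NRF1 match on the gene's strand, and in SDHD overlapping NRF1 matches on both strands and an ETS/GABP match on the other strand. Just after the start, in bases searched but not shown, SDHB also holds a YY1 match and SDHD an ERR match. Both genes thus hold ERR and NRF1 matches.

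Motifs of factors known at promoters of respiratory genes were searched on both strands of the 300 bases from 250 before to 50 after each start. The promoter table held 82 windows for 69 of the 85 genes, several genes having more than 1 start. The NRF1 motif (GCATGCGC) was in 18.3% of these windows, against 3.74% of 22180 windows of protein-coding genes and 3.05% of all 35093 windows. The ETS/GABP motif (CCGGAAGT) was in 14.6%, against 5.34% and 4.14%. The YY1 motif was in 9 of the 82 windows, against 1.68% and 1.20%, and the ERR motif (AAGGTCA) in 14.6%, against 3.22% and 3.92%. The SP motif (GGGCGGGG) was in 24.4%, between 22.8% of all windows and 29.6% of those of protein-coding genes.

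Median ratios of measured genes with and without a match differed most for YY1. The 27 genes with an NRF1, ETS/GABP or YY1 match had a median log2 ratio of 0.13 and the 41 genes in the table without one had 0.20. For NRF1 alone the medians were 0.17 with a match (14 genes) and 0.19 without (54 genes), and for ETS/GABP 0.17 (12 genes) and 0.19 (56 genes). The medians were 0.09 (8 genes) and 0.21 (60 genes) for YY1, 0.15 (11 genes) and 0.20 (57 genes) for ERR, and 0.20 (17 genes) and 0.18 (51 genes) for SP. SDHB and SDHD, with ratios of -0.60 and 0.38, both hold an NRF1 match. A match is only a run of letters, and it was not examined whether any factor binds there.

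Complex III, the cytochrome bc1 complex, was evenly divided, with 4 of 8 genes above 0 and 4 below, and its median of 0.08 became -0.05 with median scaling. CYC1, a subunit of this complex whose symbol falls outside the rule, was not among them and gave -0.19. The even split thus holds only for the genes chosen by symbol. UQCRB, which helps form the quinone-binding region, gave 15393 with control siRNA and 9491 with periostin siRNA (-0.70 ± 0.20), or 1.62-fold lower. A dimmer probe of the gene gave 95.9 and 39.4 (-1.28 ± 0.22), so its probes shared the direction and differed in size. A probe for UQCRBP1, a pseudogene copied from UQCRB, gave 5842 and 3149 (-0.89 ± 0.20), and signals of such near-identical copies cannot be told apart with certainty on an array.

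UQCR10, another small subunit, gave 30926 and 20916 (-0.56 ± 0.20), or 1.48-fold lower, and its 3 probes ranged from -0.75 to -0.53. The Rieske iron-sulfur protein itself, UQCRFS1, gave 16508 and 15092 (-0.13 ± 0.20), and the core protein UQCRC1 gave 7682 and 7251 (-0.08 ± 0.20), both within their spot errors. UQCRC2, the other core protein, was printed 10 times. It gave 4909 to 5845 (median 5628) with control siRNA and 6338 to 7277 (median 6794) with periostin siRNA. Its ratio was 0.28 ± 0.06 (SD over spots). The hinge protein UQCRH gave 42871 and 55039 (0.36 ± 0.20), the small subunit UQCRQ 82589 and 99338 (0.27 ± 0.20) and UQCR11 64176 and 76154 (0.25 ± 0.20). Members of this complex thus ranged from -0.70 to 0.36, with the lower end made of UQCRB and UQCR10.

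**Figure D3:**
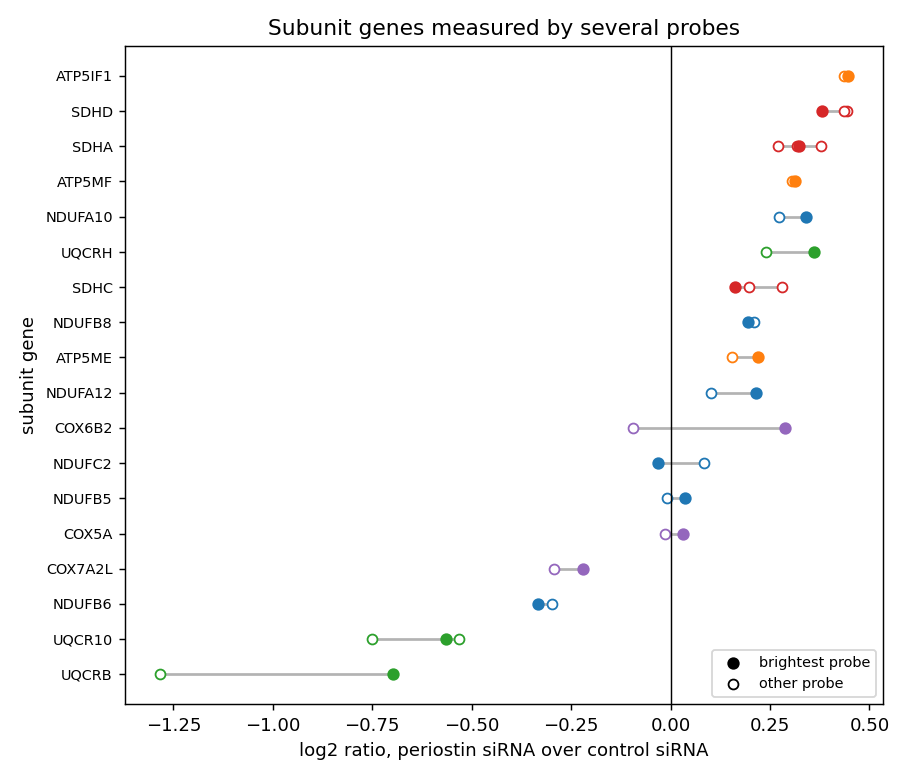
Log2 ratio of periostin siRNA over control siRNA (x axis) of each probe well above background on both arrays, for the 18 subunit genes with several such probes (y axis). Filled points are the brightest probe, which stands for the gene, open points the other probes, and colors mark the complex as in the plot of all genes. Probes of 14 genes share their sign, and the widest ranges are those of UQCRB (0.59) and COX6B2 (0.38).

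Separate probes of a gene gave a check on the ratios that does not depend on the spot error model. Of 18 genes with several probes well above background on both arrays, 14 had all probes on the same side of 0, and 15 had a range under 0.2 on the log2 scale, with a median range of 0.07. The 4 genes whose probes differed in sign were COX5A (-0.01 to 0.03), NDUFB5 (-0.01 to 0.04), NDUFC2 (-0.03 to 0.08) and COX6B2 (-0.09 to 0.29), so only for COX6B2 did the disagreement reach 0.2. NDUFV2 and SDHB, read by 1 probe and 1 spot each, had no such check.

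Complex IV, cytochrome c oxidase, had 12 of 15 genes above 0 and a median of 0.18. The count includes the bounds of COX8C and COX4I2, which could only fall above 0. Without the tissue-restricted paralogues, 9 of the 11 remaining genes were above 0. Their range was narrow, from -0.22 for COX7A2L to 0.36 for COX5B, and their median was again 0.18. COX7A2L, which takes part in joining complexes III and IV, gave 7909 with control siRNA and 6791 with periostin siRNA (-0.22 ± 0.20). COX5B, a subunit facing the matrix, gave 14935 and 19116 (0.36 ± 0.20), COX6C, a small membrane subunit, gave 22142 and 27686 (0.32 ± 0.20), and COX5A gave 16874 and 17230 (0.03 ± 0.20). COX7C, printed 10 times, gave 32494 to 35912 (median 33739) and 33932 to 39492 (median 37409), ranges that overlap, with a ratio of 0.13 ± 0.05 (SD over spots).

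Several complex IV subunits exist as a common form and as a form made chiefly in muscle, testis or lung. The 6 common forms had a median of 0.20, with 5 above 0. COX4I1, the common partner of COX4I2, gave 21236 and 22695 (0.10 ± 0.20), COX6A1, of COX6A2, gave 57629 and 71768 (0.32 ± 0.20), and COX6B1, of COX6B2, gave 18863 and 22528 (0.26 ± 0.20). COX7A2, of COX7A1, gave 46526 and 41496 (-0.17 ± 0.20) and was the one common form below 0. COX7B, of COX7B2, gave 10847 and 12292 (0.18 ± 0.20), and COX8A, of COX8C, gave 48195 and 56117 (0.22 ± 0.20).

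The restricted forms were mostly near the background of the arrays, where small amounts of signal make large ratios. COX6A2, the form of heart and skeletal muscle, gave 26.4 and 15.6 (-0.76 ± 0.27), and normexp background correction reduced this to -0.15. COX8C, the testis form, was not well above background with control siRNA (4.59) and gave 39.5 with periostin siRNA, at least 5.23-fold higher against the lowest signal well above background, but its log2 ratio was 0.60 with normexp background correction. COX4I2, the form known from lung and from low oxygen, was likewise well above background only with periostin siRNA (3.96 and 8.24), at least 1.09-fold higher. COX6B2, another testis form, gave 5556 and 6787 on one probe (0.29 ± 0.20) and 26.1 and 24.4 on the other (-0.09 ± 0.24). The brighter probe stands for COX6B2 in the counts and medians, and which of them reports the gene was not tested.

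**Figure D4:**
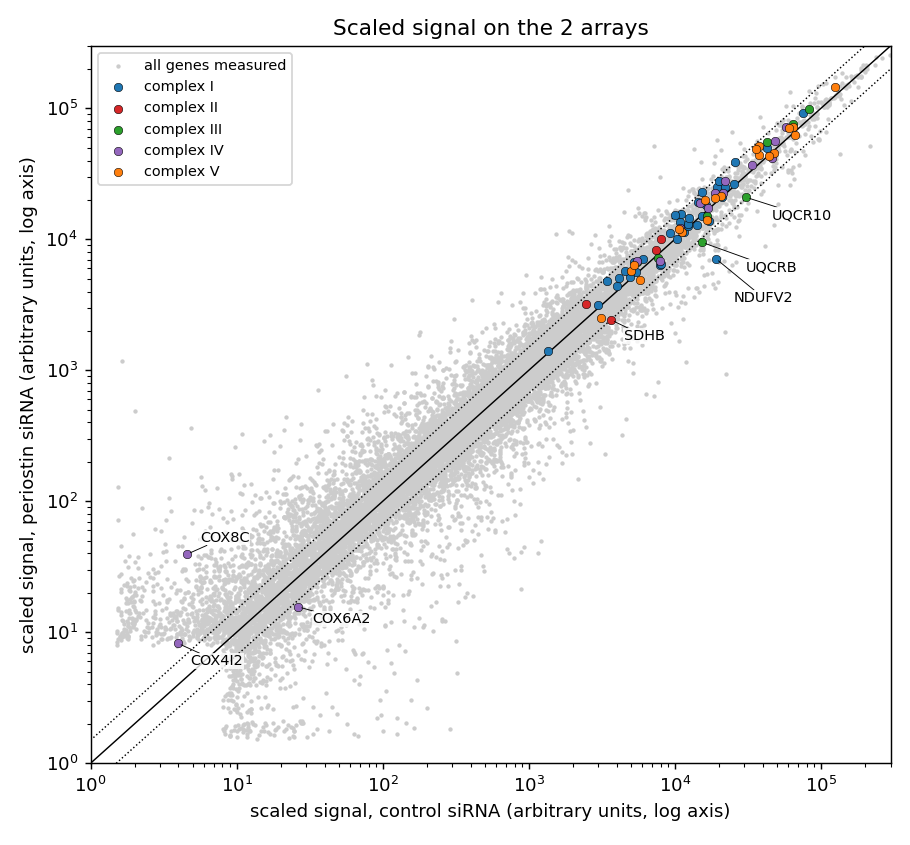
Scaled signal with control siRNA (x axis, log scale, arbitrary units) against scaled signal with periostin siRNA (y axis, log scale) for 16052 genes measured (gray) and the 82 subunit genes (colored by complex). The solid line marks equal signals and dotted lines 1.5-fold. Most subunit genes lie at the bright end close to the line, NDUFV2, UQCRB and SDHB lie below it, and COX6A2, COX8C and COX4I2 lie at the dim end.

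Complex V, the ATP synthase, had an SD over its genes of 0.22, close to the 0.19 of complex IV without its restricted forms, with no gene past 1.5-fold, 13 of 19 above 0 and a median of 0.15. The lowest was ATP5F1C, the central shaft subunit gamma, with 3130 under control siRNA and 2524 under periostin siRNA (-0.31 ± 0.20). ATP5MC1, one of 3 genes for the same proton-carrying c subunit of the rotor ring, was next with 5824 and 4874 (-0.26 ± 0.20). The catalytic subunit of the head, ATP5F1B, gave 16507 and 14176 (-0.22 ± 0.20), and its noncatalytic partner there, ATP5F1A, gave 20790 and 21407 (0.04 ± 0.20).

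The other genes for the c subunit did not share one direction. ATP5MC2 was the highest of the complex with 35802 and 49154 (0.46 ± 0.20), while ATP5MC3 gave 47508 and 45855 (-0.05 ± 0.20). ATP5IF1, which encodes the inhibitor that stops the enzyme from running backward, gave 37660 and 51350 (0.45 ± 0.20), and its other probe gave 0.44. By part of the enzyme, the medians were 0.04 for the 5 genes of the head and shaft, which became -0.09 with median scaling, 0.07 for the 4 of the peripheral stalk, which became -0.06, and 0.20 for the 5 small membrane subunits. ATP5MGL, a close copy of ATP5MG, gave 10765 and 12018 (0.16 ± 0.20) beside 64666 and 71645 (0.15 ± 0.20) for ATP5MG, and probes of such copies can share signal.

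Other mitochondrial genes, from lists made with earlier results of these data known, give the setting. Proteins that work next to the complexes, or are subunits whose symbols fall outside the rule, had a median of -0.0011 over 6 genes measured. The sign of that median changed with the processing. Such subunits include CYC1 of complex III and COXFA4 of complex IV. CYCS, the somatic cytochrome c that carries electrons to complex IV, was the lowest with 3016 and 1676 (-0.85 ± 0.20), and HIGD2A, a small protein of the supercomplexes, the highest with 3447 and 4337 (0.33 ± 0.20). CYC1, which carries a heme of complex III, gave 3953 and 3456 (-0.19 ± 0.20), and COXFA4, formerly NDUFA4 and now counted with complex IV, gave 39154 and 40733 (0.06 ± 0.20).

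Assembly factors, which build the complexes without staying in them, lay lower than the subunits. Of 54 measured, 21 (38.9%) were above 0, against 54.5% of all genes measured, and the median was -0.09 against 0.17 for the subunits. Past 1.5-fold, 6 (11.1%) were lower and 4 (7.41%) higher, both below the shares of all genes. For complex I the median of 14 was -0.05, from TMEM126B (1929 and 714, -1.43 ± 0.20) to ACAD9 (5733 and 7613, 0.41 ± 0.20), and it turned to 0.02 when probes were averaged. Both are parts of the same assembly module of the membrane arm. For complex II the median of 4 was -0.11, from SDHAF3 (991 and 775, -0.36 ± 0.20) to SDHAF4 (579 and 590, 0.03 ± 0.20).

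For complex III the median of 9 assembly factors was -0.05, from TTC19 (1467 and 877, -0.74 ± 0.20) to UQCC1 (1159 and 1553, 0.42 ± 0.20). For complex IV the median of 25 was -0.18, from COX11 (2557 and 1482, -0.79 ± 0.20), which delivers copper, to COX19 (199.0 and 315, 0.66 ± 0.20), which works in the same copper pathway. Complex V differed in direction, with ATPAF2 (485 and 686, 0.50 ± 0.20) and TMEM242 (931 and 1294, 0.47 ± 0.20) both higher. Only 2 of its 4 listed factors were measured.

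Genes for making proteins inside mitochondria were also mostly lower. Of 77 mitochondrial ribosomal proteins, 22 (28.6%) were above 0, against 54.5% of all genes measured. Their median was -0.17, with a range from MRPS17 (3031 and 1395, -1.12 ± 0.20) to MRPS25 (158 and 244, 0.63 ± 0.20). Only 3 (3.90%) were past 1.5-fold lower and 2 (2.60%) higher, against 13.7% and 17.6% of all genes. Of 12 genes for the upkeep and expression of mitochondrial DNA, 2 (16.7%) were above 0, with a median of -0.21. Past 1.5-fold, 1 of these 12 genes was lower and 1 higher (8.33% each). They ranged from TFB1M, an rRNA methyltransferase (2499 and 1292, -0.95 ± 0.20), to POLG2, the accessory subunit of the DNA polymerase (585 and 972, 0.73 ± 0.20). These medians and that of all assembly factors stayed below 0 under all 12 settings, and that of the subunits stayed above 0. The 13 subunits encoded by mitochondrial DNA itself were not analysed here.

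Of 11 regulators of respiratory genes, 4 (36.4%) were above 0, against 54.5% of all genes measured, and the median was -0.17. The lowest was MYC, printed 10 times, with 966 and 638 (-0.60 ± 0.06, SD over spots), and the highest was CREB1 with 291 and 336 (0.21 ± 0.20). The mRNAs of factors whose motifs were searched above gave 42.5 and 43.4 for NRF1 (0.03 ± 0.23), 518 and 396 for GABPA (-0.39 ± 0.20), 291 and 199 for its partner GABPB1 (-0.55 ± 0.20), 2777 and 2363 for ESRRA (-0.23 ± 0.20), 3574 and 3717 for YY1 (0.06 ± 0.20) and 416 and 370 for SP1 (-0.17 ± 0.20).

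Genes that supply the chain and exchange its product held larger single differences. The 13 citric acid cycle genes had a median of 0.03, whose sign changed with the processing, and the lowest was FH, fumarase (2095 and 802, -1.38 ± 0.20). FH takes up the fumarate that complex II produces. Of 4 carriers for phosphate and for ADP and ATP, SLC25A3 (64667 and 35814) and SLC25A5 (15608 and 8650) both had ratios of -0.85 ± 0.20, and SLC25A6 was the highest (49981 and 55706, 0.16 ± 0.20). UCP2, a carrier of the uncoupling protein family, gave 315 and 1150 (1.87 ± 0.20) and was past 3-fold, where 3.37% of all genes were. UCP3 of that family gave 6501 and 6812 (0.07 ± 0.20) on 1 probe, and whether that probe reports the gene was not tested. UCP1 was not well above background on either array.

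**Figure D5:**
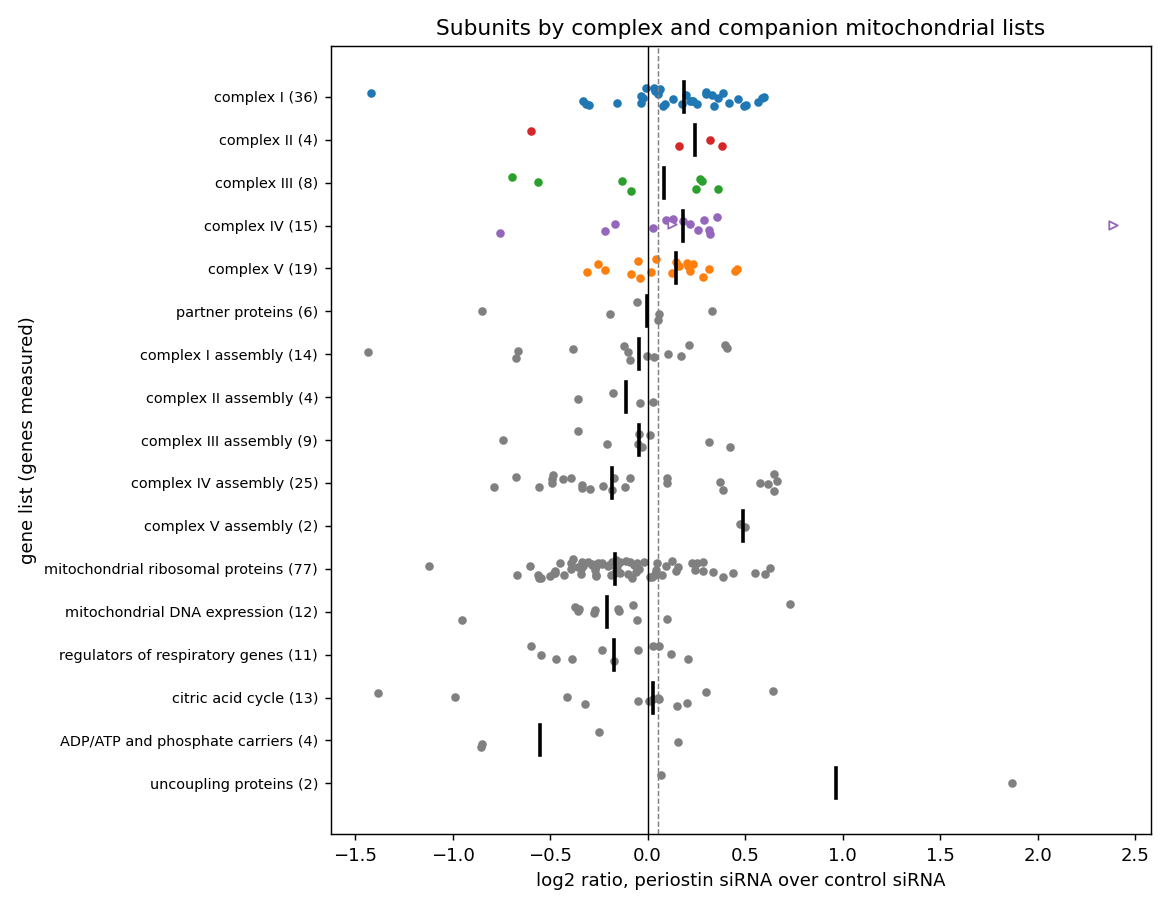
Log2 ratio of periostin siRNA over control siRNA (x axis) of each gene measured in the 5 complexes (colored) and in companion mitochondrial lists (gray), with the number of genes in brackets. Black bars are medians, open triangles are lower bounds, the solid line marks 0 and the dashed line the median of all genes (0.06). Medians of the complexes lie between 0.08 and 0.24, and those of the mitochondrial ribosomal proteins and of mitochondrial DNA expression at -0.17 and -0.21.

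Many subunit genes have copies in the genome that a probe may also detect. RefSeq names at least 1 pseudogene after 49 of the 85 genes, 201 pseudogenes in all. The median ratio was 0.13 for the 49 genes with such a copy and 0.22 for the 33 measured genes without one. How much signal the copies gave was not tested.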

How the data were processed

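Labelled RNA of 1 sample per condition was hybridized to SurePrint G3 Human GE 8x60K v2 arrays. The authors deposited, for each array, scanner intensities made with Agilent Feature Extraction (11.5.1.1 per the file headers, 12.0.3.1 in the processing notes), background-subtracted and not normalized between arrays, and a table of normalized intensities whose method is not given in the sources used here. The deposited processed signals were put on the log2 scale and each array's 75th percentile (371.6 and 383.0 over 58717 spots) was subtracted, spots of a probe were averaged, and the brightest probe stood for a gene. Signals are printed at the common percentile of 377.2. A probe counted as well above background where at least 50% of its spots carried that flag, and where this held on only 1 array the ratio is a bound against the lowest signal well above background. Genes were named through the RefSeq accession of the probe (65.1% of spots matched, GRCh38.p14 symbols). The members and the lists were chosen with earlier results of these data known. The genes given with values are the 2 lowest and 2 highest of each complex, all past 1.5-fold, those printed 10 times, paralogues, bounds, complex II, and the ends of each list. Others were added after their values were seen, and some values are not reported here. Precision is limited by the number of arrays, and the SD between replicate spots was 0.12 (667 probes). Alternatives used limma 3.58.1 (normexp with offset 50, quantile), loess (span 0.3), other scalings and probe rules. Python 3.11.15 and R 4.3.3 were used, and the script was tested on simulated data.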

Additional observations from a re-analysis of the deposited data

How the results depend on the processing

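No paired analysis was possible because a single array stands for each siRNA, which also meant that no replicate could be left out and no slide effect fitted. Over 12 settings the median of all subunit genes stayed between 0.05 and 0.21, and 46 of 82 genes stayed above 0, 17 stayed below and 19, all within 0.2 of 0, changed side. The 46 include COX8C and COX4I2, bounds in the main setting, which had a value in 10 and 9 of the 12 settings. Scaling on the median moved the complex medians most, to 0.057 for complex I, 0.11 for II, -0.047 for III and 0.019 for V, since it lowered all genes by 0.13, and it left 1 gene past 1.5-fold higher, as did loess, where the main setting gave 3. At 2-fold, 1 gene was lower and 1 higher, and at 3-fold 0 and 1. Normexp gave a POSTN log2 ratio of -2.99, and the cause was not tested. Counting COXFA4 with complex IV, an alternative added after the data were seen, gave a median of 0.15, and counting NDUFA4 with complex I was not run, since no gene now carries that symbol. Low signals limit COX6A2, COX8C and COX4I2, and averaging probes moved UQCRB to -0.99.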

Other observations

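Of the 7 nuclear subunits known to carry an iron-sulfur cluster, a group chosen after the values were seen, 5 were below 0 and 2 above in the main setting. The median log2 ratio, -0.13, is the value of UQCRFS1 and lies within its spot error. NDUFS8 changed side over the 12 settings (-0.15 to 0.02). The values were -1.42 for NDUFV2, -0.60 for SDHB, -0.32 for NDUFS1, -0.13 for UQCRFS1, -0.03 for NDUFS8, 0.30 for NDUFS7 and 0.33 for NDUFV1. Of the 82 subunit genes, 59 were above 0, and 2 of these were bounds that could only fall there. No test was made, since the group was picked for these values and each rests on 1 array per condition.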
